A study of Mus musculus with 8 samples.

Results

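The TRIM (tripartite motif) genes of mouse embryonic fibroblasts were measured after 6 h of interferon-beta (IFN-beta), a cytokine of the antiviral response, and in cells without it. Members were all gene symbols that begin with Trim and a digit, which gave 66 of the 24015 symbols in the count tables. Of these, 43 had at least 15 counts summed over the 4 RNA-seq libraries and are reported here, and the other 23 are accounted for by their counts alone. The IFN-beta group was 2 libraries treated for 6 h with recombinant mouse IFN-beta at 100 units/mL, and the untreated group was 2 libraries from cells left without it. Both groups were labelled wild type, on a C57bl/6 background, from E12.5 embryos (staged in days of gestation), and at passages 15 to 18, so these are long-cultured cells. The series otherwise presents mice with an epitope-tagged histone H3.3 and lists chromatin samples that were not analysed here. Replicates are numbered in the labels with no word on whether cultures were separate. The p-values therefore cover the spread of these libraries alone, and that spread may be technical.

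TRIM proteins share an amino-terminal RING finger, B-box and coiled-coil, and most act as E3 ubiquitin ligases that attach ubiquitin chains to their targets. The carboxy-terminal part differs between members and sets the target: a PRY-SPRY domain in the largest subgroup, a PHD finger with a bromodomain in nuclear corepressors, or NHL repeats, ARF, MATH and COS regions in others. Several PRY-SPRY members bind viral capsids or antibody-coated particles, and others place ubiquitin on the proteins that carry the signal from viral nucleic acid sensors. A number of these genes are known targets of type I interferon, which acts on promoters through the interferon-stimulated response element (ISRE).

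The libraries held 18901845 and 20714161 gene counts with IFN-beta, and 18528685 and 24817342 without. Neither pair of replicates matched within counting noise, since chi-square divided by the number of genes was 9.42 between the IFN-beta libraries and 26.2 between the untreated ones. Untreated replicate 2 weighed most on the calls over all genes, and some calls on single genes that appear without it are named below. The genes Rn45s (ribosomal RNA precursor) and Lars2 together took 14.4% and 12.9% of gene counts with IFN-beta and 5.91% and 7.48% without. All 12 fibroblast markers on the list reached 15 counts, with summed levels of 7104 and 6668 CPM (counts scaled by TMM library sizes to 1000000) with IFN-beta and 5239 and 5719 CPM without, and 1 of them, Twist1, was called higher (log2 fold change 0.72, edgeR adjusted p = 0.0437). Neural markers summed to 107 and 123 CPM with IFN-beta against 90.6 and 133 CPM without, most of it from Nes, with Rbfox3 at 0 and none of 3 tested called by edgeR, DESeq2 or limma-voom, nor at an unadjusted p under 0.05. Macrophage markers summed to 21.7 and 16.8 CPM with IFN-beta against 23.4 and 17.9 CPM without. Of these 7 markers edgeR called 0 of 5 tested, with 1 at an unadjusted p under 0.05, and DESeq2 called 1. The sum hides opposite directions: Fcgr1 had 17 and 7 counts with IFN-beta and 0 and 0 without. Lyz2 had 68 and 27 counts with IFN-beta and 164 and 67 without. The 5 muscle markers summed to at most 0.112 CPM in a library. Of 5 endothelial markers, Tie1 was at 0 in every library and Pecam1 had at most 2 counts, while Cdh5 had 24 and 19 counts with IFN-beta and 2 and 6 without (edgeR, adjusted p = 0.0140; not called by DESeq2). Kdr had 32 and 20 counts with IFN-beta and 10 and 18 without, and was not called, and Tek had 0 and 0 with IFN-beta and 5 and 2 without. The part of these other cell types in the TRIM results was not tested. In such bulk samples fewer cells of a type and less RNA per cell cannot be told apart.

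IFN-beta raised 10 of the 36 TRIM genes with enough counts to be tested and lowered 2, while 24 were not called (adjusted p below 0.05 over the 12128 tested genes, by the quasi-likelihood test of edgeR with Benjamini-Hochberg adjustment). Across all tested genes 4.73% were called higher and 0.495% lower, against 27.8% and 5.56% of the tested TRIM genes. Without untreated replicate 2 the shares were 15.3% higher and 14.0% lower over all tested genes, against 31.6% and 13.2% of 38 TRIM genes, so the share of lower TRIM genes was then no larger than that of all genes. With total library size 2.89% of all genes and 8.33% of TRIM genes were lower, and without either IFN-beta library no TRIM gene was. The 10 higher genes were Trim12a, Trim12c, Trim14, Trim21, Trim25, Trim26, Trim30a, Trim30d, Trim34a and Trim56. Their fitted log2 fold changes ran from 1.93 to 7.47, with a median of 5.17. The highest value belongs to Trim14, which had 1 count in each untreated library. The same 10 genes were called higher under each of the 14 other settings tried. The 36 tested genes had a median log2 fold change of 0.12, against -0.02 for all tested genes. Both IFN-beta libraries lay above both untreated ones for 14 of the 36, against 23.9% of all tested genes, and below them for 10, against 26.8%.

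**Figure D1:**
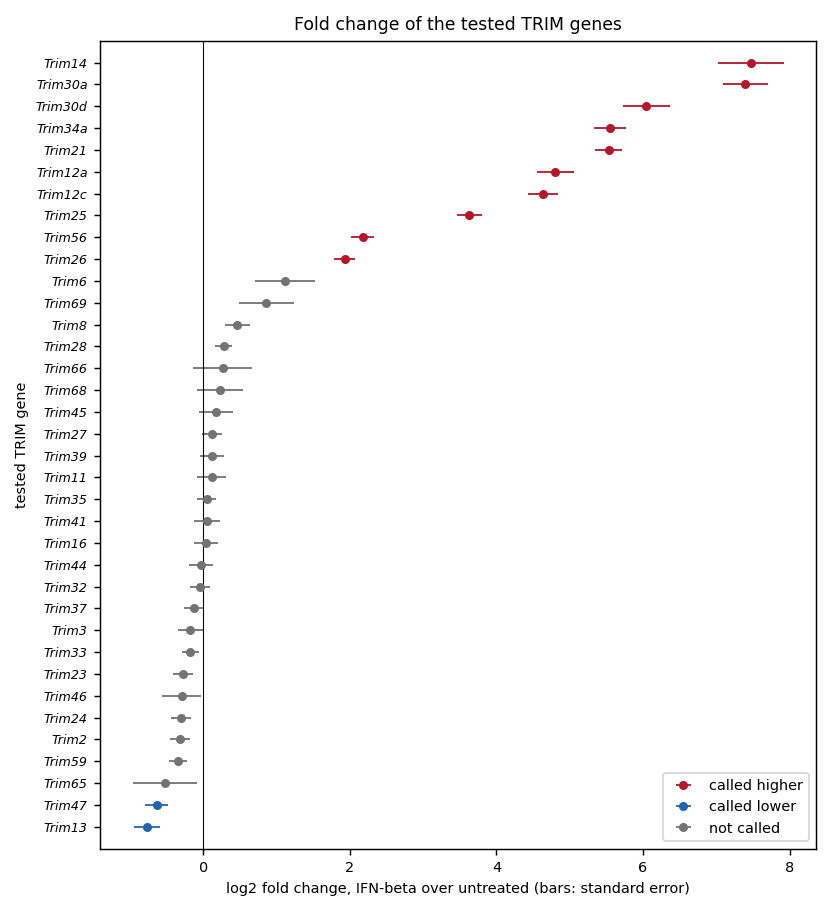
Log2 fold change of the 36 tested TRIM genes, IFN-beta over untreated, from the edgeR fit of 2 libraries a group, with bars for the standard error. The 10 genes called higher lie between 1.93 and 7.47, apart from the other 26, of which Trim6 is highest at 1.12. The value of 7.47 is that of Trim14, which had 1 count in each untreated library.

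The summed reads of the TRIM symbols were higher after the cytokine. Summed over all 66 symbols, TRIM genes had 1976 and 1930 CPM with IFN-beta, against 1243 and 1298 CPM without (1953 ± 32.8 and 1271 ± 38.6 CPM, SD, n = 2). The 10 raised genes, picked for being called higher, supplied 41.3% and 41.2% of the TRIM reads with IFN-beta, and 3.76% and 3.65% without. The other TRIM symbols together had no more CPM with IFN-beta than without. These percentages are shares of reads, not of transcripts, because transcript lengths were not used. A long transcript gives more reads than a short one. For the same reason levels are compared below only within a gene.

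The strongest block of response lay on chromosome 7, where a run of tandem PRY-SPRY genes includes the mouse relatives of human TRIM5, a factor that blocks retroviral capsids. Of the 10 tested genes in the chromosome 7 list, 6 were called higher and 0 lower, with a median log2 fold change of 4.72. Trim30a, known in mice as a brake on NF-kB signalling that removes the adaptors Tab2 and Tab3, had 269 and 245 CPM with IFN-beta, against 2.34 and 0.872 CPM without. Its log2 fold change was 7.39 ± 0.31 (SE), or 168-fold (adjusted p = 1.0e-07). Its neighbour Trim30d had 61.8 and 63.0 CPM with IFN-beta, against 1.51 and 0.493 CPM without (log2 fold change 6.04 ± 0.32 SE, adjusted p = 6.9e-07). For both genes the groups were far apart, although the untreated libraries differed from each other by more than 2-fold. Without untreated replicate 1 the log2 value was 8.22 for Trim30a and 6.99 for Trim30d, and without untreated replicate 2 it was 6.78 and 5.37.

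Trim12c, one of the genes closest to human TRIM5, had 87.3 and 93.9 CPM with IFN-beta, against 4.47 and 2.92 CPM without (log2 fold change 4.64 ± 0.21 SE, adjusted p = 1.6e-07). Its copy Trim12a had 33.4 and 35.3 CPM with IFN-beta, against 1.61 and 0.910 CPM without (4.80 ± 0.25 SE, adjusted p = 5.9e-07). Both copies thus rose by a similar factor, 24.9-fold for Trim12c and 27.9-fold for Trim12a, and the difference between them was not tested. Trim34a, whose human counterpart TRIM34 also binds retroviral capsids, had 33.1 and 35.1 CPM with IFN-beta, against 0.728 and 0.720 CPM without. That was a 46.7-fold rise (log2 fold change 5.55 ± 0.22 SE, adjusted p = 6.8e-08), with replicates close to each other in both groups. Trim21, the cytosolic antibody receptor that sends antibody-coated virus to the proteasome, lies on the same chromosome outside the tandem run. It had 79.4 and 79.8 CPM with IFN-beta, against 1.87 and 1.59 CPM without, a 46.2-fold rise (5.53 ± 0.18 SE, adjusted p = 2.1e-08).

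Not every copy in the run reached such levels. Trim5 and Trim30c are annotated in the run but are not among the counted symbols, so they were not measured. Trim30b, a further copy beside Trim12c, had 7 and 16 counts with IFN-beta and 0 in both untreated libraries. With the untreated pair pooled and set to a floor of 3 counts (0.0658 CPM), it was at least 9.28-fold higher, and it was too low for the main test. Without a count filter and by DESeq2, Trim30b was called higher. Trim34b had 0 and 1 counts with IFN-beta and 0 without, and the pseudogene Trim30e-ps1 had 3 and 3 counts with IFN-beta and 0 without. Trim6, at the end of the run next to Trim34a, had 1.01 and 1.26 CPM with IFN-beta, against 0.416 and 0.607 CPM without (1.12 ± 0.41 SE, adjusted p = 0.185). The groups did not overlap for Trim6, but it was not called, and its log2 value ran from 0.93 to 1.44 over the other settings. Records with several alignments were kept out of the gene counts: 34.9% and 37.2% with IFN-beta, and 33.0% and 29.8% without. Near-identical copies can lose reads this way. The split of reads is therefore uncertain between Trim12a and Trim12c, between Trim34a and Trim34b, and between Trim30a, Trim30b and Trim30d.

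**Figure D2:**
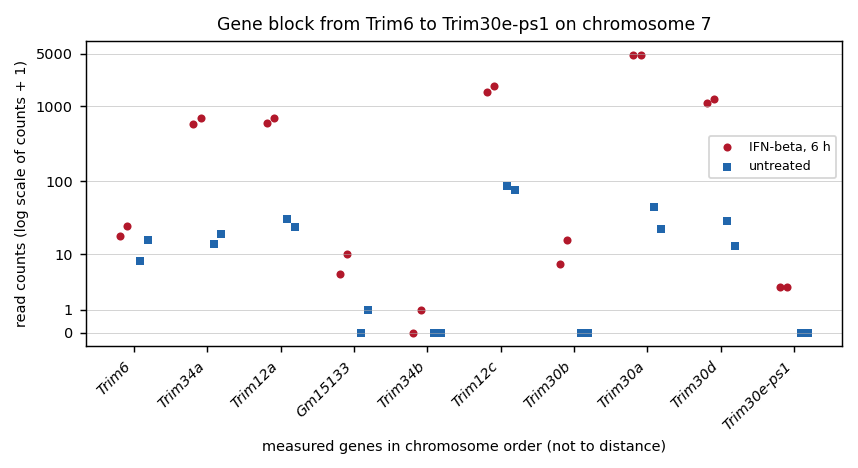
Read counts of the measured genes from Trim6 to Trim30e-ps1, in their order on the GRCm38.p6 assembly, in each IFN-beta library (circles) and each untreated library (squares), on a log scale of counts + 1. Trim34a, Trim12a, Trim12c, Trim30a and Trim30d lie between 591 and 4856 counts with IFN-beta and between 13 and 86 without, while Trim34b and Trim30e-ps1 have at most 3 counts.

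Of the chromosome 7 list, Trim3, Trim66 and Trim68 did not pass either, and Trim28, on the same chromosome but outside the list, is described with the corepressors. The ligase genes Trim3 and Trim68 had log2 fold changes of -0.18 ± 0.17 and 0.23 ± 0.32 (SE, adjusted p = 0.624 and 0.759). Trim66, a relative of the nuclear corepressors, had 30 and 27 counts with IFN-beta and 15 and 44 without, so its groups overlapped (0.27 ± 0.40 SE, adjusted p = 0.778).

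Promoter sequences, from 250 bases before to 50 after each annotated start (RefSeq, GRCm38.p6), were searched on both strands for the core letters of the ISRE: GAAA, any 2 bases, then GAAA. Of the 43 reported genes 32 had a promoter entry. Among the genes called higher, 7 of the 9 with an entry held the motif, and among the other reported genes 1 of 23 did, which was Trim2. Those other genes include some too low for the main test, among them Trim30b. Over all genes with an entry 3.99% held it, and 3.44% of single windows. Of all tested genes with an entry, it was present in 18.3% of the 416 called higher and in 2.99% of the 8615 not called. Trim14 has no entry, and the Trim25 and Trim56 windows held no match.

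The raised genes of chromosome 7 are shown from 60 bases before to 50 after the start, because the motif sits close to the start in each. Capitals mark the motif, which on the opposite strand reads TTTC, any 2 bases, then TTTC.
Trim21, chr7:102565433-102565542, strand -: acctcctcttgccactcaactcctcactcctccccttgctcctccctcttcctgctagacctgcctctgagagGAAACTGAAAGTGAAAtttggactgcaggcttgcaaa
Trim34a, chr7:104244397-104244506, strand +: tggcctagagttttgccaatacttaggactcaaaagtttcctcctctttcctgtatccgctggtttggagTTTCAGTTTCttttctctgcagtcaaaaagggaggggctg
Trim12a, chr7:104315446-104315555, strand -: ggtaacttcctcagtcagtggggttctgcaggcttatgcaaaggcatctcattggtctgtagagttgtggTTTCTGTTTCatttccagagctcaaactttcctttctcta
Trim12c, chr7:104353300-104353409, strand -: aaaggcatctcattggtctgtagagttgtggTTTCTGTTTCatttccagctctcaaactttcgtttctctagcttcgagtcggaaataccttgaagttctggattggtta
Trim30a, chr7:104465144-104465253, strand -: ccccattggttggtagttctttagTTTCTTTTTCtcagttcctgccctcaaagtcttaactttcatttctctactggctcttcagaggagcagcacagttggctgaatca
Trim30d, chr7:104507800-104507909, strand -: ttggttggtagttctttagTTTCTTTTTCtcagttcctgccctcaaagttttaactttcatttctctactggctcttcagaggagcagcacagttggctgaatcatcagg
Counted from the start, Trim21 has 2 overlapping matches between bases 14 and 29. In Trim34a and Trim12a the match runs from base 11 to base 20. It runs from base -29 to base -20 in Trim12c, from -36 to -27 in Trim30a and from -41 to -32 in Trim30d. A further annotated start of Trim30a has a match from base 3 to base 12. The 300-base promoters of Trim30a and Trim30d are 90.8% identical in a global alignment, and those of Trim12a and Trim12c 72.9%, gaps included. The Trim12a and Trim12c windows are shifted against each other, as their motif positions show. Their alignment spans 340 columns with 248 identical, so gaps from the shift lower the 72.9%.

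Copies with few reads are shown over the same stretch for comparison. Trim30b had 7 and 16 counts with IFN-beta and 0 and 0 without, and DESeq2 called it higher. Trim34b had at most 1 count in a library.
Trim30b, chr7:104358597-104358706, strand -: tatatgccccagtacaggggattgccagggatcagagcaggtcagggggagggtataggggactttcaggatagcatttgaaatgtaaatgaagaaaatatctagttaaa
Trim34b, chr7:104329411-104329520, strand +: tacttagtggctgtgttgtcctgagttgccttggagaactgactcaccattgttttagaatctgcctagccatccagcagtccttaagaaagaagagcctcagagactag
Neither window holds the motif. The annotated Trim30b promoter is 49.9% identical to that of Trim30a, and the Trim34b promoter 52.2% identical to that of Trim34a, gaps included. Pairs with different gene numbers scored alike: 49.9% for Trim12a and Trim34a, 54.9% for Trim12c and Trim30a, and 48.2% for Trim21 and Trim30a. Values in this range therefore do not show that the promoters of copies are alike. The motif of Trim26, on chromosome 17, lies farther from the start, with 2 overlapping matches between bases -160 and -145, and is shown from base -180 to base -71.
Trim26, chr17:36836966-36837075, strand +: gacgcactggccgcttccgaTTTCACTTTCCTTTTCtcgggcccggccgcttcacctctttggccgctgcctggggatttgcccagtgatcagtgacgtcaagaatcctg
The count of 8 motif-bearing genes fell to 3 when CT had to follow the second GAAA (Trim30a, Trim30d and Trim34a, against 0.303% of all genes with an entry). It fell to 4 in the 250 bases before the start alone (Trim12c, Trim26, Trim30a and Trim30d, against 3.46%). The letters TTCNNNGAA, bound by STAT dimers at interferon-gamma targets, occurred in 0 of the 9 raised genes with an entry and in 3 of the other 23, against 9.55% of all genes with an entry. A match of letters describes the window and does not show that a factor binds there.

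**Figure D3:**
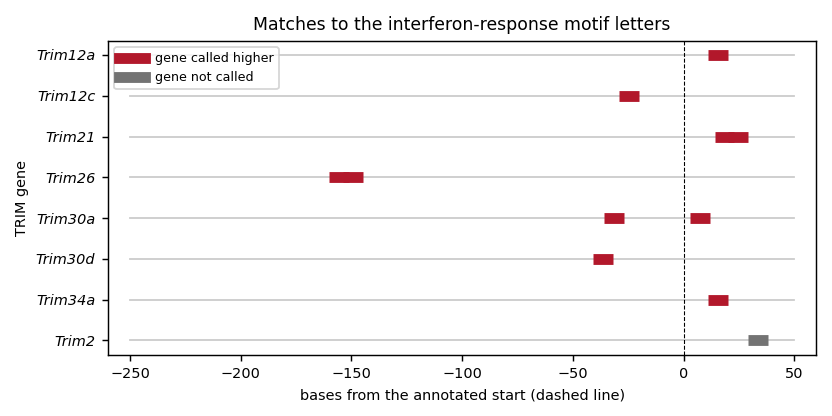
Position of each match to the core ISRE letters, on either strand, in the promoter windows of the 8 reported TRIM genes that hold one, in bases from the annotated start (dashed line). The matches of 6 raised genes lie between bases -41 and 29 and those of Trim26 between -160 and -145. Trim30a has a match at each of 2 annotated starts.

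The raised TRIM genes outside chromosome 7 were Trim14, Trim25, Trim26 and Trim56. Trim25, the ligase that ubiquitinates RIG-I and so lets it signal, had 132 and 134 CPM with IFN-beta, against 8.99 and 12.3 CPM without. The rise was 12.4-fold (log2 fold change 3.63 ± 0.17 SE, adjusted p = 3.0e-07), with no overlap between groups. Trim56, linked to the DNA-sensing adaptor STING and to restriction of RNA viruses, had 40.0 and 38.1 CPM with IFN-beta, against 8.68 and 8.61 CPM without (2.17 ± 0.16 SE, 4.51-fold, adjusted p = 8.1e-06). Trim14, which lacks a RING finger and works as an adaptor at MAVS on mitochondria, was nearly silent in untreated cells. It had 181 and 150 counts with IFN-beta and 1 count in each untreated library, a ratio of depth-scaled counts of 200.3 (95% exact interval 55.0 to 1661, counting error only). Its fitted log2 fold change was 7.47 ± 0.45 (SE, adjusted p = 2.0e-06 by edgeR) and ran from 6.00 to 7.68 over the other settings.

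Trim26, a ligase of the MHC region on chromosome 17 reported to limit the transcription factor IRF3, had 71.0 and 63.7 CPM with IFN-beta, against 16.5 and 18.8 CPM without. It had the smallest called rise of the 10 (1.93 ± 0.15 SE, 3.81-fold, adjusted p = 1.4e-05). Of its TRIM neighbours in that region, only Trim39 had enough counts to be tested, and it was not called. Trim39 had 270 and 336 counts with IFN-beta and 267 and 413 without (log2 fold change 0.12 ± 0.17 SE, adjusted p = 0.765). Trim15 had 2 and 11 counts with IFN-beta and 5 and 4 without, Trim10 had 1 count in all, and Trim31 and Trim40 had none. A change in these could not be tested.

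Trim13 and Trim47 were the 2 genes called lower, by less than 2-fold. Trim13, a ligase anchored in the endoplasmic reticulum membrane that serves protein quality control there, had 124 and 142 counts with IFN-beta, against 241 and 305 counts without. Its log2 fold change was -0.77 ± 0.18 (SE, adjusted p = 0.0368). Trim47, another PRY-SPRY gene, had 14.7 and 14.8 CPM with IFN-beta, against 21.8 and 24.0 CPM without (-0.64 ± 0.16 SE, adjusted p = 0.0477). In both cases the groups were clearly apart and the replicates close, yet neither call was stable. Without IFN-beta replicate 1 the adjusted p was 0.342 for Trim13 and 0.402 for Trim47, without IFN-beta replicate 2 it was 0.209 and 0.278, and DESeq2 gave 0.0568 for Trim13. The Trim13 locus overlaps Dleu2, which had 30 and 31 counts with IFN-beta and 37 and 36 without, and Kcnrg, which had at most 7. Reads of overlapping genes cannot be separated here if counting ignored the strand.

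The nuclear corepressors, which carry a PHD finger and a bromodomain, gave 0 calls among 4 tested genes by edgeR, DESeq2 or limma-voom, with 1 at an unadjusted p under 0.05. Trim28 (KAP1), which silences retroelements and is recruited by KRAB zinc finger proteins, had 209 and 204 CPM with IFN-beta, against 166 and 175 CPM without. Both IFN-beta libraries were higher, but the log2 fold change of 0.28 ± 0.12 (SE) did not pass (adjusted p = 0.257). Trim24, a cofactor of nuclear receptors, had 30.9 and 30.0 CPM with IFN-beta, against 38.9 and 36.2 CPM without (-0.30 ± 0.14 SE, adjusted p = 0.285). Trim33, which acts on Smad4 in TGF-beta signalling, had 93.1 and 91.3 CPM with IFN-beta, against 103 and 105 CPM without (-0.18 ± 0.12 SE, adjusted p = 0.482). For Trim24 and Trim33 both IFN-beta libraries were lower than both untreated ones. Trim24 passed as lower only without untreated replicate 2 (adjusted p = 0.0478). Of 11 tested partners in Trim28 silencing, among them Setdb1 and the HP1 genes, 0 were called by edgeR, DESeq2 or limma-voom. Of the 11, 2 had an unadjusted p under 0.05, and the median log2 fold change was 0.0039. Over all tested genes edgeR called 4.73% higher and 0.495% lower, so no call among 4 or 11 genes is near those shares.

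Members with NHL repeats, which bind RNA or cytoskeletal cargo, gave 0 calls among 3 tested genes by the same 3 tools, with 1 at an unadjusted p under 0.05. Trim2, a ligase for neurofilament light chain in neurons, had 31.0 and 30.7 CPM with IFN-beta, against 39.2 and 37.5 CPM without (-0.32 ± 0.14 SE, adjusted p = 0.257). It passed as lower only without untreated replicate 2 (adjusted p = 0.0498). Trim32, whose human counterpart is mutated in a limb-girdle muscular dystrophy, had 28.0 and 29.0 CPM with IFN-beta, against 29.2 and 29.5 CPM without (-0.04 ± 0.14 SE, adjusted p = 0.904). The 3 tested genes with ARF, MATH or filamin-type ends, which are Trim23, Trim37 and Trim45, gave 0 calls by the 3 tools. None had an unadjusted p under 0.05, and log2 fold changes ran from -0.27 to 0.17. Over all tested genes edgeR called 4.73% higher and 0.495% lower, so no call among 3 genes is near those shares.

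Trim59, a membrane-anchored member, had 305 and 290.0 CPM with IFN-beta, against 372 and 384 CPM without. Both IFN-beta libraries were lower than both untreated ones, but the change of -0.35 ± 0.12 (SE) was not called (adjusted p = 0.160). It passed as lower when scaled by total library size (adjusted p = 0.0398), and when untreated replicate 2 was left out (adjusted p = 0.0414). Trim8, which acts in TNF and interleukin-1 signalling, had 38.2 and 35.8 CPM with IFN-beta, against 22.8 and 30.8 CPM without (0.46 ± 0.17 SE, adjusted p = 0.188). Its groups did not overlap, and it was called higher only without untreated replicate 2 (adjusted p = 4.8e-05, log2 value 0.70). Trim27 had 68.7 and 69.5 CPM with IFN-beta, against 57.5 and 69.3 CPM without (0.12 ± 0.14 SE, adjusted p = 0.688), and Trim35 had 82.8 and 85.8 CPM, against 75.8 and 87.1 CPM without (0.05 ± 0.13 SE, adjusted p = 0.884). Trim69 (0.86 ± 0.38 SE, adjusted p = 0.270) and Trim65 (-0.52 ± 0.44 SE, adjusted p = 0.567) had under 2 CPM in every library. Over all 24 tested genes without a call, log2 fold changes ran from -0.52 to 1.12 with a median of 0.04, and 21 of them were within 0.5 of 0.

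Many TRIM genes with a tissue-restricted role had few reads or none in these fibroblasts. Of 11 such genes, known mainly from muscle, neurons, red cell precursors, epithelium or early embryos, only Trim46 reached 15 counts, and 5 were at 0 in every library. It was not called (-0.30 ± 0.26 SE, adjusted p = 0.596). In all, 10 TRIM symbols had no count in any library, among them the neuronal Trim9, the epithelial Trim29 and the muscle genes Trim54 and Trim55. A count of 0 allows up to 0.0796 CPM in the pooled IFN-beta libraries and 0.0658 CPM in the pooled untreated ones. A further 13 symbols had 1 to 12 counts in all. Just under the limit of 15 was Trim71, a gene of embryonic stem cells, with 0 and 1 counts with IFN-beta and 5 and 6 without, and just inside it Trim62, with 8 and 3 counts with IFN-beta and 3 and 1 without. Of the 43 reported genes, 7 were too low for the test, each with at most 16 counts in a library. Annotated genes that overlap a member, beyond those of Trim13, include Ppm1e at Trim37 (adjusted p = 0.126) and Krtcap2 at Trim46 (adjusted p = 0.436), neither called.

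**Figure D4:**
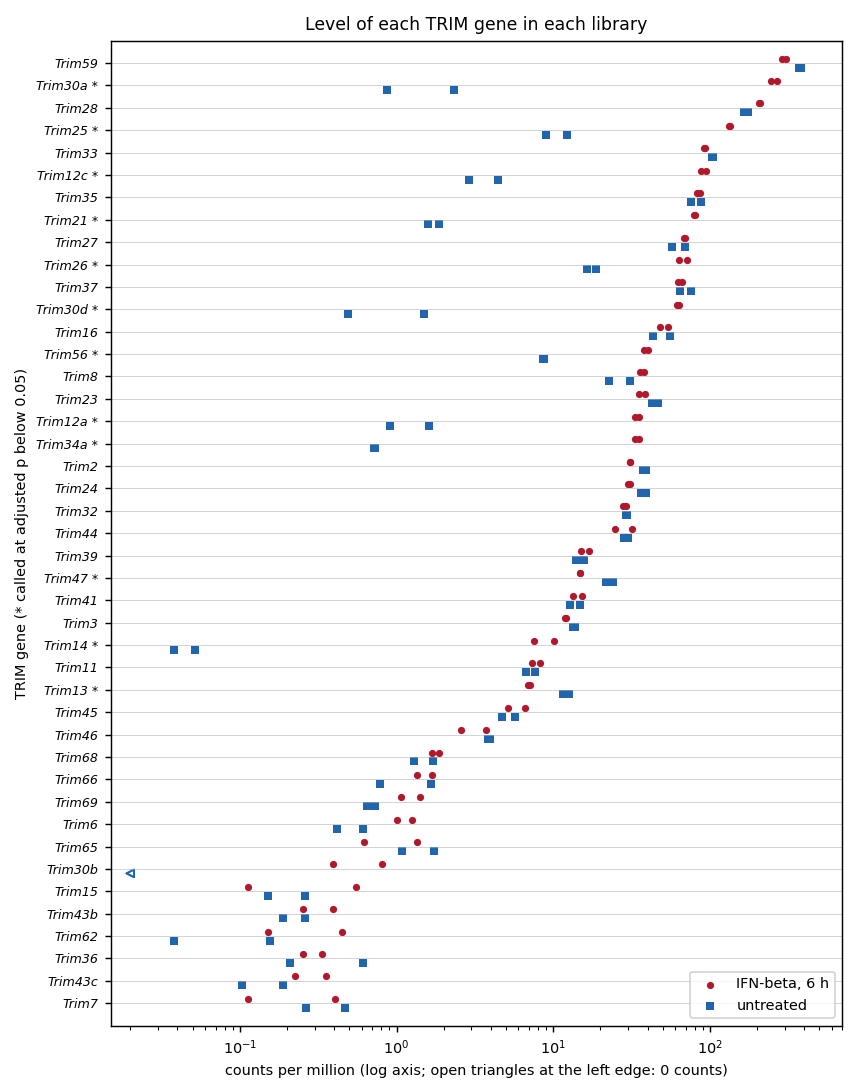
Level (CPM) of the 43 reported TRIM genes in each IFN-beta library (circles) and each untreated library (squares), on a log axis, ordered by the IFN-beta mean. The 10 raised genes show a gap between the groups, from Trim14 at 10.1 and 7.56 against 0.0520 and 0.0379 CPM to Trim26 at 71.0 and 63.7 against 16.5 and 18.8 CPM. Position along the axis does not rank genes by transcript number, since length is not taken into account.

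Relatives that carry other symbols gave 2 calls among 6 tested, both higher. Pml (also TRIM19), which organises nuclear bodies, had 81.4 ± 6.80 CPM with IFN-beta and 12.7 ± 0.313 CPM without (SD, n = 2), a log2 fold change of 2.67 ± 0.15 (SE, adjusted p = 8.5e-07). Rnf135 (Riplet), a RING and PRY-SPRY ligase that ubiquitinates RIG-I, had 12.7 ± 0.172 CPM with IFN-beta and 2.23 ± 0.437 CPM without (SD, n = 2), or 2.49 ± 0.22 (SE, adjusted p = 4.3e-05). The microtubule-bound relatives did not pass, with Mid1 at 0.13 ± 0.16 (SE, adjusted p = 0.731) and Mid2 at -0.72 ± 0.20 (SE, adjusted p = 0.0738). Mid1 passed as higher in 1 of 14 other settings, without untreated replicate 2 (0.35, adjusted p = 0.0472). Mid2 passed as lower in 6 of 14 other settings, among them DESeq2 (adjusted p = 0.0445), and its adjusted p ran from 2.0e-07 to 0.394.

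Over all tested genes 4.73% were called higher and 0.495% lower. Of the enzymes that hand ubiquitin to such ligases, 2 of 26 tested were called higher (7.69%) and 0 lower. These were Uba7 (5.03 ± 0.24 SE, adjusted p = 2.5e-07) and Ube2l6 (4.45 ± 0.24 SE, adjusted p = 9.1e-07), which serve mainly the ubiquitin-like modifier ISG15. The general partner Ube2n, which builds the chains used in antiviral signalling, had 203 ± 0.0527 CPM with IFN-beta and 195 ± 9.76 CPM without (SD, n = 2, adjusted p = 0.840), and the list median was 0.02. Among 21 tested sensing proteins on which TRIM ligases act, 6 were called higher and 0 lower, with a median of 0.24. The RIG-I gene Ddx58, the target of Trim25, had 307 ± 9.53 CPM with IFN-beta and 10.5 ± 1.24 CPM without (SD, n = 2). The other raised genes were Ifih1 (log2 fold change 7.05), Nlrc5 (2.89), Irf7 (92.4 ± 6.31 CPM with IFN-beta and 3 pooled untreated counts), and, named after their values were seen, Zc3hav1 (2.67) and Mb21d1 (1.72). Mavs, the adaptor of Trim14, had 13.8 ± 0.890 CPM with IFN-beta and 11.9 ± 2.11 CPM without (SD, n = 2, adjusted p = 0.593).

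Other families that hold ubiquitin ligases or their target-binding parts were counted in the same fit. Of 59 tested Rnf genes, which encode RING finger proteins, 5 were called higher (8.47%) and 0 lower, with a median log2 fold change of -0.0041. They were Rnf135 (2.49), Rnf31 (1.72), Rnf114 (1.36), Rnf19b (0.93) and Rnf139 (0.53), named after their values were seen. Among F-box genes, 0 of 28 Fbxo and 0 of 17 Fbxl genes were called by edgeR, DESeq2 or limma-voom, with 4 and 1 at an unadjusted p under 0.05, and 1 of 9 Fbxw genes was higher (Fbxw17, 1.15). Of 24 Klhl genes 0 were higher and 1 lower (Klhl9, -0.60), and of 7 March genes 1 was higher (March5, 1.19). The zinc finger genes with Zfp symbols, the family whose KRAB members recruit Trim28, had 6 of 316 called higher and 7 lower, with a median of -0.19. Over all tested genes 4.73% were called higher and 0.495% lower. These shares are descriptions, and the difference between families was not tested.

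**Figure D5:**
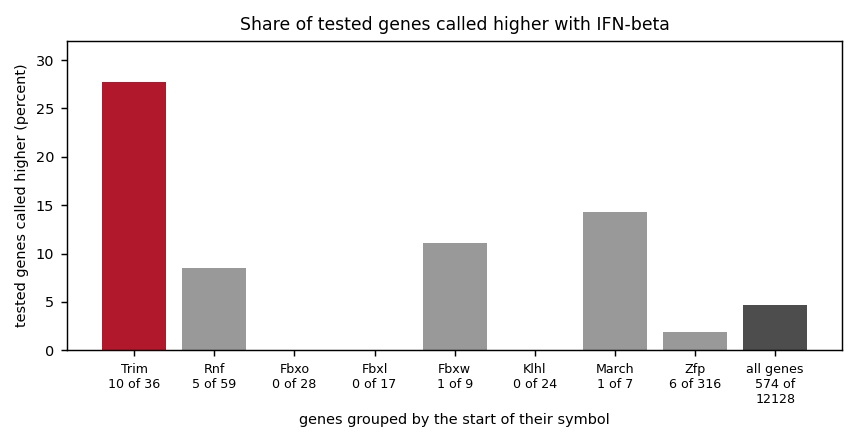
Percent of tested genes called higher with IFN-beta in families grouped by the start of the symbol, with the counts under each bar, and for all tested genes at the right. The TRIM bar stands at 27.8% and the others between 0 and 14.3%, with all genes at 4.73%.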

How the data were processed

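Each RNA-seq library has a table of raw counts by gene symbol that the authors deposited; no scaling had been applied. RNA came from Trizol extraction and went into TruSeq RNA libraries, per the labels' protocols. TopHat2 2.0.13, HTSeq 0.7.2 and the mm9 build are named, per the submitters' processing notes. Which gene annotation was used, and whether counting used strand, is not given in the sources used here. The 5 summary lines of each table, 57.3% to 61.3% of its records, were left out.

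All genes were fitted with edgeR 4.0.16 (R 4.3.3) by quasi-likelihood F tests with TMM scaling, no covariate beside the group, and genes kept by filterByExpr (minimum count 10, minimum total 15). The SE is the log2 fold change divided by the square root of F. With 2 libraries a group no permutation test of a single gene was used.

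Alternatives were upper quartile scaling, DESeq2 size factors, total library size, testing without a count filter, CPM of 1 in at least 2 libraries, DESeq2 1.42.0, limma-voom (limma 3.58.1), a replicate block, a prior count of 2, each library left out and, added after the data were seen, leaving out the 3 genes Rn45s, Lars2 and Mir6236. The procedure was tested on simulated data.

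Members and lists were chosen with earlier results of these data known. Genes named are the called members, the chromosome 7 list, the 6 highest by mean CPM, 11 members always reported, the 3 largest uncalled changes each way, members at the 15-count limit, and up to 4 called genes of each partner list by p with Pml, Mid1 and Mid2. Others were named after their values were seen. Promoters and gene order come from RefSeq (GRCm38.p6), a build other than that of the counts, and were matched by symbol.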

Additional observations from a re-analysis of the deposited data

How the results depend on the processing

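The 10 raised TRIM genes were called higher under all 14 other settings, and their lowest log2 value under any of them was 1.78 (Trim26, total library size). The count of TRIM genes called higher was 10 to 12 without 1 library, and 11 without a count filter and with DESeq2, where Trim30b was added. The count called lower was 1 with DESeq2, 3 with total library size (Trim59 added) and 0 to 5 without 1 library: 0 without either IFN-beta replicate, and 5 without untreated replicate 2, where Trim2, Trim24 and Trim59 were added. Without a count filter 56 TRIM genes were tested, and without 1 library 37 to 40. The median log2 fold change of tested TRIM genes was -0.0249 with total library size, a scaling that moved the median of all genes to -0.16, and 0.0424 to 0.291 without 1 library (0.291 without untreated replicate 2). The cause of these shifts was not tested.

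Over all genes, 574 were called higher and 60 lower. The higher count was 863 without a count filter and 470 to 1885 without 1 library (1885 without untreated replicate 2). The lower count was 350 with total library size, 128 with upper quartile scaling, 381 without a count filter, 95 with DESeq2, and 24 to 1728 without 1 library (24 without IFN-beta replicate 1, 227 without untreated replicate 1, 1728 without untreated replicate 2). In fits that leave out a library, the remaining one of that group is assumed to vary like the other group. Some small uncalled changes turned sign. With total library size Trim27 was at -0.0226, Trim35 at -0.0963 and Mid1 at -0.0194, and with upper quartile scaling Trim35 was at -0.0230. Without 1 library, Trim35 ran from -0.0240 to 0.153, Trim66 from -0.115 to 0.953 and Mid1 from -0.0393 to 0.350, each lowest without untreated replicate 1 and highest without untreated replicate 2.

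The replicate block left 10 TRIM genes called higher and 2 lower, with 692 and 155 calls over all genes and a TRIM median of 0.12. The labels do not say whether same-numbered libraries were paired. Their deviations from the group means correlated at -0.033. With 2 libraries a group both replicate numbers must give the same value, so this is a single result and does not settle pairing. TRIM promoters with the motif numbered 3 with the longer letters and 4 in the upstream part alone. Depth limits the genes under 15 counts, for which a change could not be tested.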

Other observations

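No call fell on the tested non-TRIM genes next to the called TRIM genes. Among measured genes directly beside the 12 called members on the GRCm38.p6 assembly, 13 were not TRIM genes, and 8 of these were tested. None of the 8 was called by edgeR, DESeq2 or limma-voom, and 1 had an unadjusted p under 0.05. Over all tested genes edgeR called 4.73% higher and 0.495% lower, so no call among 8 genes is near that share. The log2 fold changes of the 8 ran from -0.21 (Spryd7, beside Trim13) to 0.70 (Coro2a, beside Trim14). Beside Trim25, Dgke was at 0.49 (adjusted p = 0.201) and Coil at 0.18 (adjusted p = 0.619). The noncoding gene Gm15133, which overlaps Trim12a, had 5 and 10 counts with IFN-beta and 0 and 1 without, and was too low for the test.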
